A study of Mus musculus with 8 samples.

Results

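The CCN family consists of secreted matricellular proteins, which sit in the extracellular matrix and modulate signalling instead of building the scaffold. Its 6 mouse genes, Ctgf, Cyr61, Nov, Wisp1, Wisp2 and Wisp3, were found by symbol in a table of 43346 genes and make up the subject here. The table uses the older symbols, and the genes are now named Ccn2, Ccn1, Ccn3, Ccn4, Ccn5 and Ccn6, in the same order. The 6 genes were chosen by family name, and the family itself was selected on counts of these libraries, with the LLC_CM against NCM difference of its members known. Fold changes of members are therefore a description, with no test of their own.

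CCN proteins are built from modules: an insulin-like growth factor-binding-protein-like module, a von Willebrand factor type C repeat, a thrombospondin type 1 repeat and, in every member except Wisp2, a cystine knot at the carboxyl end. They act through integrins, heparan sulfate proteoglycans and LRP co-receptors, and bind growth factors such as BMPs, TGF-beta and VEGF. Ctgf and Cyr61 are widely used readouts of the YAP/TAZ coactivators and their TEAD DNA-binding partners, Ctgf is also a TGF-beta target, and Wisp1 was named as a Wnt1-induced gene. In bone, Ctgf, Cyr61 and Wisp1 are known as positive factors for osteoblasts and Nov as an inhibitor of their differentiation.

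The cells were MC3T3, a line of mouse pre-osteoblasts, and RNA of 8 samples was sequenced. In the 4 LLC_CM libraries, 25% of the medium had been conditioned over 48 hours, serum-free, by LLC1, a Lewis lung carcinoma line of the mouse. The 4 NCM libraries are taken as the vehicle group by elimination, since the labels do not explain the abbreviation. Both groups spent 7 days in a mineralization medium containing ascorbic acid (100 ug/mL) and beta-glycerophosphate (10 mM). All libraries come from 1 cell line. Separate cultures are not stated for the replicates, and the p-values below refer to variation among these libraries, which may be technical.

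The libraries held 27264212 to 35573953 counts. Levels are given as CPM, the count of a gene scaled to a common library size. On log2 CPM the first principal component held 76.4% of the variance, with LLC_CM at one end and NCM at the other. NCM replicate 3 lay farthest out among the NCM libraries on that component. Values without it are given for Nov, Wisp2 and some gene lists, not for every result. The osteoblast markers Runx2, Sp7, Col1a1, Alpl and Bglap were all detected: summed over the 8 markers of the list they ranged from 40630 to 48240 CPM in LLC_CM and from 56840 to 70380 CPM in NCM. The epithelial genes Epcam, Krt8 and Krt18 and the endothelial genes Cdh5 and Kdr had no count in any library, while Muc1 of the epithelial list and Vwf of the endothelial list were detected at low levels and passed the test.

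The 5 detected members went in different directions. In CPM, Ctgf and Wisp1 were lower in LLC_CM than in NCM, Wisp2 and Nov were higher, and Cyr61 was at the same mean in both. The groups did not overlap for 4 of the 5 members, against 36.3% of all 14991 genes tested, and the same 4 passed an adjusted p of 0.05 in edgeR's quasi-likelihood test, against 36.9% of all genes. These differences were known when the family was chosen, so nothing is read from the 2 counts. In bulk RNA, fewer cells of a type and less RNA per cell cannot be told apart.

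**Figure D1:**
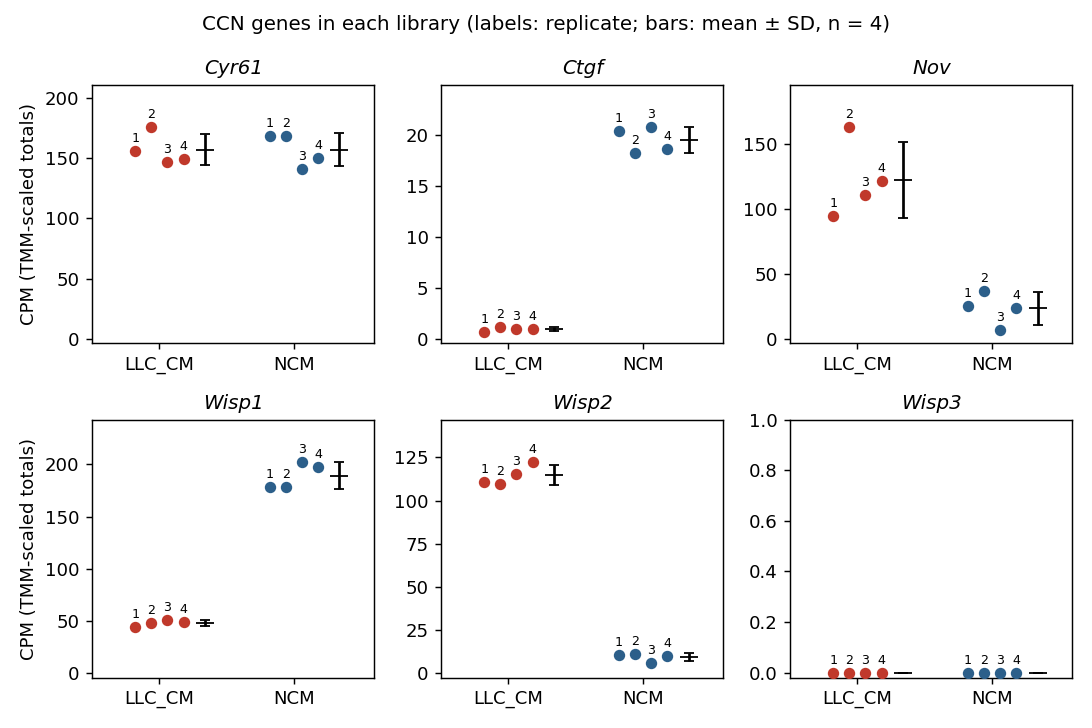
CPM of each CCN gene (y axis, TMM-scaled totals) in the 4 LLC_CM and 4 NCM libraries, each point 1 library labelled with its replicate number, with the mean and SD beside them. Ctgf and Wisp1 sit lower in LLC_CM, Nov and Wisp2 sit higher, Cyr61 overlaps between the groups and Wisp3 is at 0.

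Ctgf, which encodes connective tissue growth factor, showed the largest difference of the family. The gene lies on the forward strand of chromosome 10, at 24595442 to 24598683 in mm10 (ENSMUSG00000019997). It had 21, 32, 33 and 31 counts in LLC_CM replicates 1 to 4, against 599, 515, 589 and 591 counts in NCM replicates 1 to 4. Scaled to library size, these were 0.676, 1.18, 0.924 and 0.926 CPM in LLC_CM and 20.4, 18.2, 20.8 and 18.6 CPM in NCM. Every LLC_CM library was thus far below every NCM library, and the spread within each group was small beside the gap between them. The means were 0.928 ± 0.207 CPM in LLC_CM and 19.5 ± 1.27 CPM in NCM (SD, n = 4), which is 21.1-fold lower in LLC_CM, or a log2 fold change of -4.40 ± 0.14 (SE). Among 14991 genes tested, the fold change of Ctgf was the 73rd from the lowest. A gene model on the opposite strand, Gm15270, overlaps 23.2% of the exonic length of Ctgf in GENCODE M21, and the library kit does not mark strand. Gm15270 had 1, 1, 0 and 0 counts in LLC_CM and 34, 30, 53 and 28 counts in NCM, so it was low in the same libraries and on a much smaller scale. Reads of the 2 genes in the shared stretch cannot be told apart.

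Cyr61, a heparin-binding angiogenic factor and the closest counterpart of Ctgf as a YAP/TEAD readout, was level between the groups. It lies on chromosome 3 (145646971 to 145649985, reverse strand, ENSMUSG00000028195). Its values were 156, 176, 147 and 150 CPM in LLC_CM and 168, 168, 141 and 151 CPM in NCM, and the 2 ranges overlap. The means were 157 ± 13.0 CPM in LLC_CM and 157 ± 13.5 CPM in NCM (SD, n = 4), with a log2 fold change of 0.00 ± 0.07 (SE). Ranked by fold change, Cyr61 was 7231st from the lowest of 14991 genes tested, close to the middle. Per kilobase of exon, Cyr61 stood at 326, 210, 225 and 228 times the level of Ctgf in LLC_CM, against 11.6, 13.0, 9.59 and 11.4 times in NCM.

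**Figure D2:**
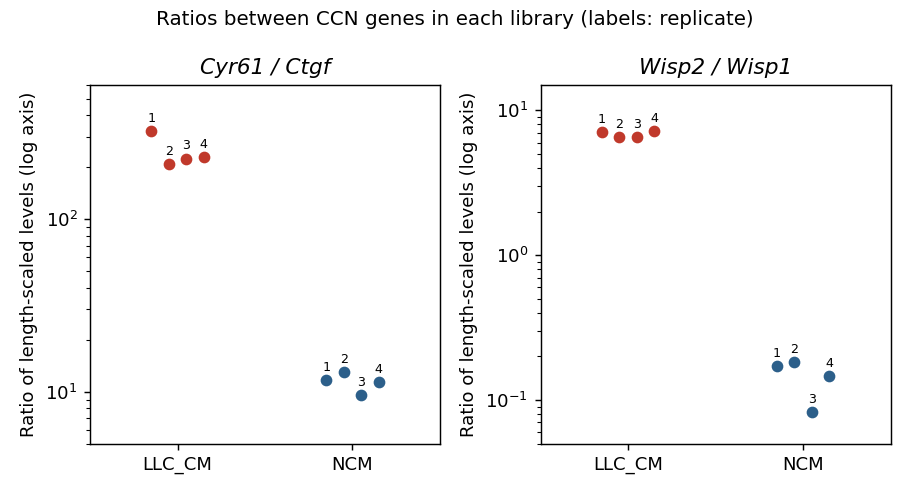
Ratio of length-scaled levels (log axis) of Cyr61 to Ctgf and of Wisp2 to Wisp1, with 1 point per library labelled by replicate. The Cyr61 to Ctgf ratio runs from 210 to 326 in LLC_CM and from 9.59 to 13.0 in NCM, and the Wisp2 to Wisp1 ratio from 6.50 to 7.18 in LLC_CM and from 0.0822 to 0.182 in NCM.

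RefSeq promoter sequences (build GRCm38.p6) matched 2 of the 6 members, Cyr61, which had the highest level per kilobase, and Wisp3, which had none. The 250 bases before each start are shown to set an active and a silent member side by side. Capitals mark a TEAD motif, CATTCC on either strand, and a TATA box, TATAAA on either strand. The first is chr3:145649986-145650235 and the second chr10:39163795-39164044, both on the reverse strand and written 5′ to 3′ along it.
Cyr61: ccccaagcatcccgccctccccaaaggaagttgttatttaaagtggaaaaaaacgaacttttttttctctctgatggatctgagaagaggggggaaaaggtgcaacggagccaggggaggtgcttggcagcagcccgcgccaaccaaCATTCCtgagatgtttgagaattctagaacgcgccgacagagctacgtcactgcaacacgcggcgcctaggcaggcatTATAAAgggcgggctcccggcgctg
Wisp3: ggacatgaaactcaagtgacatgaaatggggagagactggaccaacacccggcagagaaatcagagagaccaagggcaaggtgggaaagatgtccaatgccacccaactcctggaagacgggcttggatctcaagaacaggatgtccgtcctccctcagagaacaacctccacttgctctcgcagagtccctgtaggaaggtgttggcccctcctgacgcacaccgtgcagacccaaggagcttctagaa

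The Cyr61 window held the TEAD motif once, 103 to 98 bases before the start, and the TATA box once, 25 to 20 bases before it, with no overlap between them. Over 32851 mouse promoters the TEAD motif was found in 12.6% and the TATA box in 12.4% of such windows. Neither was in the Wisp3 window, and neither window held any of the other 6 motifs searched: CAGACA (17.1% of promoters), TGACTCA or TGAGTCA for AP-1 (4.46%), CTTTGAT for TCF/LEF (3.21%), ACCACA for RUNX (14.0%), TTCNNNGAA for STAT (7.02%) and the CArG box (1.47%). The windows shared a GC content of 54.8%, against a median of 52.4% over all promoters, and held 15 CpG dinucleotides for Cyr61 and 6 for Wisp3. A match to these letters is a description of the sequence.

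Nov, an inhibitor of osteoblast differentiation, was higher in LLC_CM and was the most variable member. It is a gene of chromosome 15 (54745702 to 54754039, forward strand, ENSMUSG00000037362), with 94.1, 163, 110 and 122 CPM in LLC_CM and 25.3, 36.9, 7.03 and 23.6 CPM in NCM. LLC_CM replicate 2 was the highest of its group and NCM replicate 3 by far the lowest of its own, yet the lowest LLC_CM library was above the highest NCM library. The means were 122 ± 29.3 CPM in LLC_CM and 23.2 ± 12.3 CPM in NCM (SD, n = 4), 5.26-fold higher in LLC_CM, with a log2 fold change of 2.39 ± 0.47 (SE). Without NCM replicate 3 the NCM mean was 28.6 ± 7.26 CPM (SD, n = 3) and the log2 fold change 2.09.

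Wisp2, the member without the cystine knot, was the most strongly raised. It maps to chromosome 2 (163820861 to 163833146, forward strand, ENSMUSG00000027656). Its values were 111, 110, 116 and 122 CPM in LLC_CM and 10.7, 11.3, 5.79 and 10.1 CPM in NCM. The LLC_CM libraries lay close together, while NCM replicate 3 was again the lowest NCM library. Means were 115 ± 5.78 CPM in LLC_CM and 9.48 ± 2.51 CPM in NCM (SD, n = 4), a log2 fold change of 3.59 ± 0.16 (SE), or 12.1-fold. This was the 77th highest fold change of 14991 genes tested. Without NCM replicate 3 the NCM mean was 10.7 ± 0.621 CPM (SD, n = 3) and the log2 fold change 3.41.

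Wisp1, a Wnt-induced factor made where bone forms, was lower in LLC_CM. The gene lies on chromosome 15 (66891320 to 66923201, forward strand, ENSMUSG00000005124), 12.1 Mb beyond Nov, the other member of that chromosome, whose difference had the opposite sign. It had 44.6, 48.3, 51.0 and 48.9 CPM in LLC_CM and 178, 178, 202 and 198 CPM in NCM. Both groups were tight and widely separated. The means were 48.2 ± 2.66 CPM in LLC_CM and 189 ± 12.6 CPM in NCM (SD, n = 4), 3.92-fold lower in LLC_CM, with a log2 fold change of -1.97 ± 0.07 (SE).

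Wisp3, whose human counterpart is mutated in a heritable cartilage disease, had 0 counts in all 8 libraries and was not tested. With 3 counts as the limit that a count of 0 allows, its level was at most 0.0122 CPM over the 8 libraries, which covers counting error only. It lies on chromosome 10 (39150971 to 39163794, reverse strand, ENSMUSG00000062074), 14.6 Mb from Ctgf. Tube1, a tubulin gene on the other strand, overlaps 33.97% of its exonic length and was detected at 7.55 to 8.28 CPM in LLC_CM and 6.62 to 7.86 CPM in NCM, and reads in the shared stretch cannot be told apart. The rest of its exonic length overlaps no other annotated exon and also had no count.

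Levels of different genes can be compared only per length, so counts were divided by the deposited exon length in kilobases to give CPM per kilobase (RPKM). In LLC_CM the order was Cyr61 (77.6 ± 6.39 RPKM), Wisp2 (59.6 ± 3.00), Nov (42.6 ± 10.2), Wisp1 (8.73 ± 0.482) and Ctgf (0.324 ± 0.0724; SD, n = 4). In NCM the order was Cyr61 (77.5 ± 6.64 RPKM), Wisp1 (34.3 ± 2.28), Nov (8.10 ± 4.29), Ctgf (6.83 ± 0.446) and Wisp2 (4.93 ± 1.31; SD, n = 4). Cyr61 thus led in both groups, and Wisp2 was next in LLC_CM but the lowest detected member in NCM. Neighbours in the order had separate ranges except Nov and Ctgf in NCM, where Nov reached down to 2.45 RPKM and Ctgf up to 7.27 RPKM. In LLC_CM the ranges of Wisp2 and Nov only just failed to meet, at a lowest value of 57.1 RPKM for Wisp2 and a highest of 56.7 RPKM for Nov. Among the 14991 genes tested, Cyr61 ranked 673rd in LLC_CM and 637th in NCM by RPKM, while Ctgf ranked 13990th in LLC_CM and 7094th in NCM.

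Summed over its members, the family stood at 176, 210, 181 and 189 RPKM in LLC_CM and 137, 140, 119 and 130 RPKM in NCM. All LLC_CM libraries were above all NCM libraries, with means of 189 ± 15.0 RPKM in LLC_CM and 132 ± 9.41 RPKM in NCM (SD, n = 4). Without the length scaling the sums were closer, from 406 to 498 CPM in LLC_CM and from 377 to 413 CPM in NCM, and their ranges met. By counts, Wisp1, the longest of the 6 genes, made up 10.9% of the LLC_CM sum and 47.6% of the NCM sum. Per kilobase the make-up of the family differed as follows. Cyr61 and Wisp1 made up 41.1% ± 2.07 and 4.64% ± 0.384 of the LLC_CM sum and 58.8% ± 1.47 and 26.2% ± 3.63 of the NCM sum (SD, n = 4). Wisp2 and Nov made up 31.7% ± 3.01 and 22.4% ± 3.50 in LLC_CM and 3.71% ± 0.788 and 6.0% ± 2.94 in NCM (SD, n = 4). Ctgf held 0.170% ± 0.0264 in LLC_CM and 5.22% ± 0.657 in NCM (SD, n = 4).

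**Figure D3:**
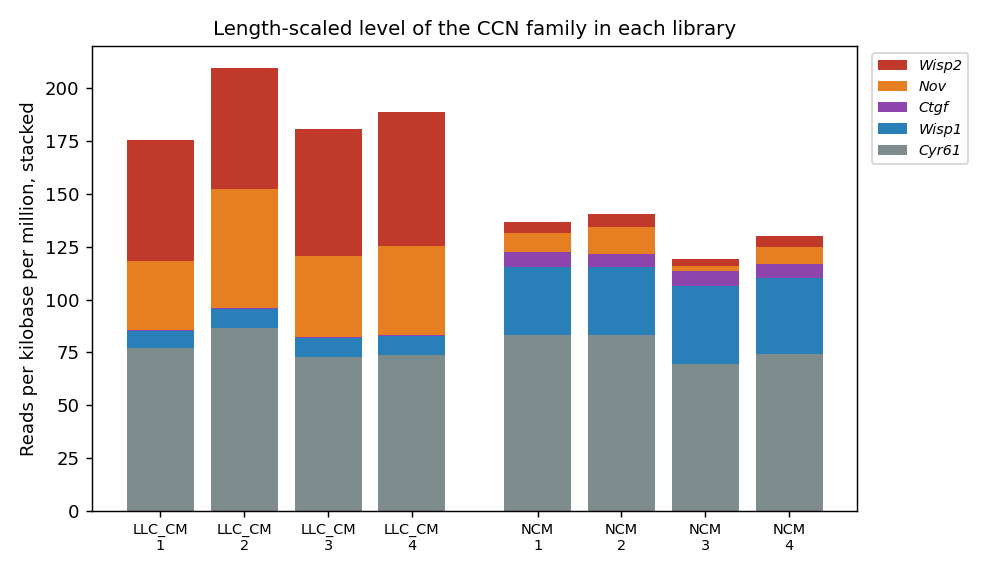
Stacked RPKM of the 5 detected CCN genes in each of the 4 LLC_CM and 4 NCM libraries. The Cyr61 segment is of like height throughout, the Wisp2 and Nov segments are tall in LLC_CM and the Wisp1 and Ctgf segments are tall in NCM.

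Reads shared between members would need near-identical stretches. The longest matches between members ran from 64.8% identity over 903 bases, between Ctgf and Nov, to 74.3% over 109 bases, between Wisp2 and Ctgf. Of the 12 nearest tested protein-coding genes on either side of the members, 5 rose, 4 fell and 3 did not pass, against 18.8% that rose and 18.1% that fell over all genes tested. Nov lies between Tnfrsf11b, the osteoprotegerin gene, 467 kb away, and Enpp2, the autotaxin gene, 84.9 kb away. Tnfrsf11b fell, with a log2 fold change of -2.60 ± 0.09 (SE, edgeR, adjusted p = 1.5e-11), while Enpp2 rose by 1.69 ± 0.16 (adjusted p = 9.1e-06). Ndrg1, 6.12 kb beyond Wisp1, fell by 0.50 ± 0.14 on the log2 scale (adjusted p = 0.016). Tg, 40.6 kb on the other side of Wisp1, fell by 4.16 ± 0.58 (adjusted p = 4.3e-05), to 0.0741 CPM in LLC_CM against 1.35 CPM in NCM. Ada, 70.6 kb before Wisp2, rose by 1.63 ± 0.25 (adjusted p = 8.4e-05), to 1.95 CPM in LLC_CM against 0.625 CPM in NCM. The nearest tested genes around Ctgf were Stx7, which rose by 0.20 ± 0.07 (adjusted p = 0.035), and Med23, at -0.07 ± 0.07, which did not pass (adjusted p = 0.41).

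Other genes with the amino-terminal module of the CCN family were mostly higher in LLC_CM. This module is found in the classical IGF-binding proteins, in the secreted serine proteases Htra1 and Htra3 and in a few other secreted proteins. Of 13 such genes 10 were tested, of which 6 rose and 1 fell at an adjusted p of 0.05 in edgeR's quasi-likelihood test over all genes, and their median log2 fold change was 1.23 against 0.01 over all genes tested. Over all genes 18.8% rose and 18.1% fell, and the counts of the other lists below stand beside the same shares. Igfbp5, an abundant IGF-binding protein of bone, had 242, 222, 223 and 249 CPM in LLC_CM and 28.4, 28.5, 22.6 and 35.1 CPM in NCM. Its log2 fold change was 3.03 ± 0.11 (SE, adjusted p = 5.4e-11). Igfbp4, another IGF-binding protein of osteoblasts, had 510, 555, 563 and 581 CPM in LLC_CM and 108, 115, 117 and 109 CPM in NCM, a log2 fold change of 2.30 ± 0.06 (SE, adjusted p = 1.6e-12). Htra1 rose by 1.75 ± 0.07 to 973 CPM in LLC_CM, against 289 CPM in NCM (adjusted p = 2.9e-11). Kazald1 was the gene of this list that fell, by 0.59 ± 0.07 (adjusted p = 5.2e-06), and Igfbp1, Igfbp3 and Igfbpl1 had no count in any library. The groups did not overlap for any of these called genes.

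The YAP/TAZ and TEAD genes, which relay mechanical and Hippo signals to Ctgf and Cyr61, were split. Of 18 genes for coactivators, TEAD factors, Hippo kinases and other regulators of the pathway, all tested, 4 rose and 8 fell. The median log2 fold change was -0.14. Tead4, a DNA-binding partner, fell by 1.15 ± 0.10 (adjusted p = 4.5e-07), to 11.4 CPM in LLC_CM against 25.2 CPM in NCM. Tead2 and Tead3 also fell, by 0.68 ± 0.09 and 0.37 ± 0.09 (adjusted p = 3.0e-05 and 0.0036). Tead1 rose by 0.23 ± 0.07 (adjusted p = 0.014), to 70.6 CPM in LLC_CM against 60.35 CPM in NCM. Wwtr1, which encodes TAZ, fell by 0.50 ± 0.06 (adjusted p = 1.7e-05), and Amotl1, a junction protein that binds YAP, fell by 0.76 ± 0.06 (adjusted p = 5.5e-08). Yap1 itself, at 99.1 CPM in LLC_CM and 95.4 CPM in NCM, had a log2 fold change of 0.05 ± 0.05 and did not pass (adjusted p = 0.46). Without NCM replicate 3, 2 genes of this list rose instead of 4.

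Other YAP/TEAD targets moved both ways. Of 20 genes besides Ctgf and Cyr61, 19 were tested, 8 rose and 4 fell, with a median log2 fold change of 0.15. Nt5e, an ectonucleotidase, fell by 2.75 ± 0.08 (adjusted p = 3.4e-12); it had 9.82, 10.1, 10.4 and 8.22 CPM in LLC_CM and 64.2, 61.7, 63.4 and 69.2 CPM in NCM. Ptpn14, a phosphatase that restrains YAP, fell by 0.60 ± 0.06 (adjusted p = 2.0e-06), and Ccdc80, a matrix protein, rose by 0.90 ± 0.07 (adjusted p = 6.4e-08). Ankrd1, the other common readout beside the 2 CCN genes, was chosen after its values were seen: it had 5.63, 6.77, 5.04 and 6.54 CPM in LLC_CM and 2.73, 3.86, 1.24 and 3.19 CPM in NCM, and rose by 1.12 ± 0.24 (adjusted p = 0.0024). The 3 readouts therefore differed in direction, Ctgf lower, Cyr61 level and Ankrd1 higher.

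**Figure D4:**
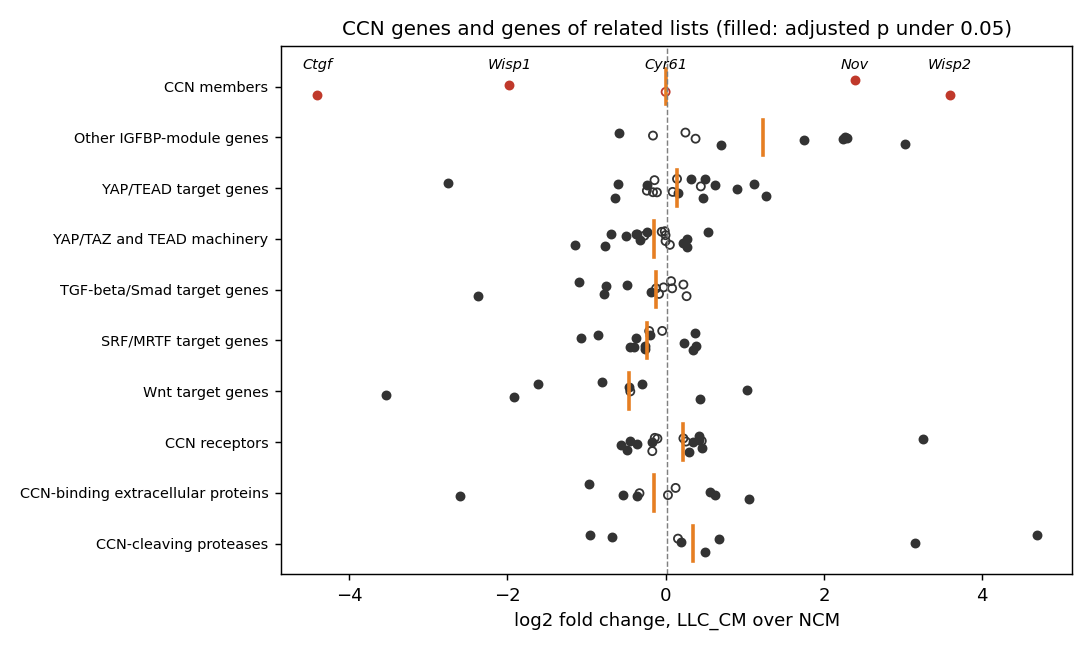
Log2 fold change, LLC_CM over NCM, of the CCN genes (red) and of genes of 9 related lists (black), 1 point per tested gene, filled where the adjusted p was under 0.05, with orange bars at list medians and a dashed line at the median of all genes tested. CCN genes span -4.40 to 3.59, and the other IGFBP-module genes have the highest median, 1.23.

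TGF-beta/Smad targets were lower where they passed. Of 13 tested, 0 rose and 6 fell in edgeR, against 18.8% that rose and 18.1% that fell over all genes tested. Their median log2 fold change was -0.12, or -0.07 without LLC_CM replicate 1. At an unadjusted p under 0.05, 1 was higher, and with DESeq2 and limma-voom 0 rose. Skil, a Smad co-repressor, fell by 0.78 ± 0.09 (adjusted p = 7.8e-06) and Smad6, an inhibitory Smad, by 1.09 ± 0.17 (adjusted p = 0.00012). The differences of both genes were smaller than that of Ctgf on the log2 scale. Up to 2 targets also passed as higher when single libraries were left out, 2 without LLC_CM replicate 2 and 1 without NCM replicate 3.

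SRF/MRTF targets, which include actin cytoskeleton genes and share regulation with Ctgf and Cyr61, were also mixed. Of 15 genes 14 were tested, 4 rose and 8 fell, and the median log2 fold change was -0.23. The list also counts Srf itself and its coactivators Mkl1 and Mkl2, so these values are not those of targets alone. Vcl, vinculin, fell by 0.85 ± 0.06 (adjusted p = 2.8e-08) and Tagln, transgelin, by 1.06 ± 0.13 (adjusted p = 3.4e-05), although opposite-strand gene models overlap 25.5% of the exonic length of Vcl and 62.4% of that of Tagln. Mkl2, an SRF coactivator, fell by 0.40 ± 0.07 (adjusted p = 0.00024), while Mkl1, also an SRF coactivator, rose by 0.37 ± 0.09 (adjusted p = 0.0059). The acute Wnt-responsive genes, to which Wisp1 is usually compared, mostly fell: of 13 genes 9 were tested, 2 rose and 6 fell, and the median was -0.47. Those that rose were Lef1, by 0.44 ± 0.13 (adjusted p = 0.017), and Fosl1, by 1.035 ± 0.235 (adjusted p = 0.0027). Opposite-strand models overlap 13.75% of the exonic length of Lef1 and 57.2% of that of Fosl1. Without LLC_CM replicate 4 or NCM replicate 2, 1 rose. Tcf7, a partner of beta-catenin on DNA, fell by 3.53 ± 0.15 (adjusted p = 6.1e-09), Znrf3 by 0.80 ± 0.09 (adjusted p = 3.5e-06) and Notum by 1.61 ± 0.19 (adjusted p = 9.8e-06). Znrf3 and Notum encode feedback inhibitors of Wnt signalling, and 29.4% of the exonic length of Notum overlaps an opposite-strand model.

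Receptors for CCN proteins were expressed in both groups and differed modestly. Of 19 receptor genes 17 were tested, 6 rose and 5 fell, with a median log2 fold change of 0.23. Leaving out each library in turn moved this median between 0.16 and 0.29. The integrin subunit Itgb1 fell by 0.56 ± 0.08 (adjusted p = 2.6e-05), to 1008 CPM in LLC_CM against 1489 CPM in NCM. Sdc4, a heparan sulfate proteoglycan, fell by 0.48 ± 0.06 (adjusted p = 6.6e-06). Itgb2, a leukocyte integrin subunit, rose by 3.25 ± 0.33 (adjusted p = 1.5e-06) but reached only 1.91 CPM in LLC_CM, against 0.198 CPM in NCM, and its partner Itgam had no count in any library.

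Matrix proteins and growth factors that bind CCN proteins were divided as well. Of 14 such genes 10 were tested, 3 rose and 4 fell, with a median log2 fold change of -0.15. Leaving out 1 library moved this median to -0.07 without NCM replicate 3, -0.09 without LLC_CM replicate 2 and -0.24 without LLC_CM replicate 3. Tnfrsf11b, described above as the neighbour of Nov, also encodes a binding partner of Ctgf protein. Dcn, the proteoglycan decorin, rose by 1.06 ± 0.08 (adjusted p = 3.8e-08), and Tgfb1 fell by 0.96 ± 0.10 (adjusted p = 2.7e-06). Of 15 genes for proteases that can cleave CCN proteins or similar matrix proteins, 8 were tested, 5 rose and 2 fell, and the median was 0.35. Mmp13, a collagenase, rose by 4.69 ± 0.11 (adjusted p = 2.0e-13), Mmp9, a gelatinase, by 3.15 ± 0.36 (adjusted p = 4.8e-06) to 2.14 CPM in LLC_CM, against 0.231 CPM in NCM, and Ctsk, a cysteine protease, by 0.67 ± 0.08 (adjusted p = 4.4e-06).

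Markers of other cell types moved with the groups as well, and their part in the CCN differences was not tested. Of 9 chondrocyte markers 5 were tested, 1 rose and 3 fell, and their summed level ran from 74.0 to 97.0 CPM in LLC_CM and from 180 to 204 CPM in NCM, with Matn1 and Col10a1 at 0 throughout. Ctgf and Wisp1 were lower in the same libraries, as were 18.1% of all genes tested at an adjusted p of 0.05. Of 8 osteoblast markers 7 fell and 1 rose. The one that rose was Spp1, by 0.78 ± 0.12 (adjusted p = 7.8e-05), and the smallest fall was that of Ibsp, by 0.45 ± 0.10 (adjusted p = 0.0020). Bglap, osteocalcin, fell by 6.35 ± 0.22 on the log2 scale (adjusted p = 1.2e-09) and Alpl, alkaline phosphatase, by 2.19 ± 0.11 (adjusted p = 7.2e-10). Within the chondrocyte list Sox9 was the gene that rose, to 34.6 CPM in LLC_CM against 20.4 CPM in NCM. Col2a1 had the largest fall, to 1.88 CPM in LLC_CM against 53.9 CPM in NCM, so the sum does not speak for each marker. Of 6 adipocyte markers 3 were tested, 2 rose and 1 fell, the fall resting on Plin4, whose call was lost without any of 6 single libraries (all but LLC_CM replicate 3 and NCM replicate 4), with sums of 28.7 to 39.1 CPM in LLC_CM and 26.2 to 30.1 CPM in NCM. Of 8 macrophage markers 4 were tested, 2 rose and 0 fell, also at an unadjusted p under 0.05 and with DESeq2 or limma-voom, with sums of 18.7 to 32.3 CPM in LLC_CM and 11.6 to 17.4 CPM in NCM, and with Tyrobp and Itgam at 0. The tested genes of the endothelial, epithelial and skeletal muscle lists summed to at most 2.59 CPM per list in any library. Muc1, an epithelial mucin, rose by 1.93 ± 0.36 (adjusted p = 0.0005), to 1.46 CPM in LLC_CM against 0.384 CPM in NCM. Vwf, von Willebrand factor of endothelium, fell by 0.73 ± 0.18 (adjusted p = 0.0046), to 1.41 CPM in LLC_CM against 2.34 CPM in NCM. Besides Plin4, Muc1 and Vwf, the called markers of non-skeletal cell types all rose. They were Tnnt3 of skeletal muscle, Lyz2 and Fcer1g of macrophages and Fabp4 and Cebpa of adipocytes.

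The genes whose levels across the 8 libraries were most like those of each member were found by Pearson correlation of log2 CPM among 10003 genes with a mean of at least 5 CPM, leaving out genes known only by a model or clone name. With 2 separated groups such a correlation reflects mostly the group difference, so it is given as a description. For Ctgf the most similar genes were Dchs2, Mtus1, Cab39, Nhej1 and Antxr2 (r from 0.997 to 0.998), all lower in LLC_CM. Those most like Wisp1 were Phospho1, Bglap2, Papss2, Fbxw7 and Mob3b (r of 0.999 each), of which Phospho1 and Bglap2 are mineralization-related genes. Wisp2 was most like Vezt, Sulf2, Olfml2b, Nsg1 and Osmr (r from 0.997 to 0.998), and Nov most like Nabp1, Rrm1, F2r, Paqr8 and Jazf1 (r from 0.984 to 0.989). Cyr61, whose group means were alike, was most like Arhgap29, Emc7, Grk4, Chchd3 and Ube2v2 (r from 0.939 to 0.979).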

How the data were processed

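Raw counts per gene for 8 libraries were deposited by the authors as whole numbers, with featureCounts, STAR, CASAVA and the mm10 build named in the submitters' processing notes. Their versions, order and settings are not given in the sources used here. Per the labels' protocols, libraries were poly(A)-selected and the kit does not mark strand. Gene lengths and coordinates come from the deposited table.

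Sample titles gave the groups. Of the 43346 genes listed, 22913 had any read, and filterByExpr of edgeR kept 14991. Groups were compared in R 4.3.3 with the quasi-likelihood F test of edgeR 4.0.16 (glmQLFit, robust, TMM scaling, group alone in the model). Benjamini-Hochberg adjusted p-values cover all 14991 genes, with 0.05 as threshold. It was tested on simulated counts with known changes. Fold changes are LLC_CM over NCM on the log2 scale, and SE is their size over the root of F. CPM uses TMM-scaled totals, and log2 CPM a prior count of 2. No pair of replicates was a repeat deposit (lowest chi-square per degree of freedom 7.07). Overlaps used GENCODE M21 and transcript matches blastn 2.17.0.

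The members and gene lists were chosen with earlier results of these data known. Named genes are the members, up to 3 called genes per list with the smallest adjusted p, and the 5 genes most like each member. One gene that the rule names is not reported here. Kazald1, Yap1, Ankrd1, Tead1, Tead2, Tead3, Mkl1, Lef1, Fosl1, Spp1, Ibsp and genes named as having no count were chosen after their values were seen. Neighbours were found by position alone, with no rule for which of them are described. Alternatives changed the scaling (DESeq2's size factors, upper quartile, totals only), the low-count filter (none, or 1 CPM in 4 libraries), the tool (limma-voom in limma 3.58.1, DESeq2 1.42.0), the threshold (0.01) and the length (longest transcript, or none). A replicate block and fits without each library were also run.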

Additional observations from a re-analysis of the deposited data

Results flagged for a closer look

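In groups of 4 libraries, 1 library was set apart where its gap to the nearest other, over the range of the group, passed Dixon's critical value. Of 100 groups of 4 examined, 8 had such a library, and chance gives about 1 in 20, or 5.0 here.

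One concerned the family itself: the Cyr61 to Ctgf ratio of levels per kilobase was 326.4 in LLC_CM replicate 1, against 209.6 to 228.1 in the other LLC_CM libraries. Ctgf had 21 counts in that library. In LLC_CM replicate 1, Mmp13 was also low, at 6389 CPM against 7730 to 7996 CPM, and Sox9 at 32.43 CPM against 35.18 to 35.33 CPM. LLC_CM replicate 3 was high for Amotl1, at 80.16 CPM against 71.58 to 73.02 CPM, and for Wwtr1, at 67.37 CPM against 61.93 to 62.5 CPM. Alpl was low in LLC_CM replicate 2, at 12.47 CPM against 14.07 to 14.25 CPM. NCM replicate 3 was high for Notum, at 11.83 CPM against 7.652 to 7.71 CPM, and for Col2a1, at 73.03 CPM against 46.49 to 48.92 CPM.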

How the results depend on the processing

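The 4 members that passed the threshold did so under all 17 alternatives, and Cyr61 under none. Leaving out each library in turn gave log2 fold changes of -4.52 to -4.29 for Ctgf, -0.06 to 0.03 for Cyr61, 2.09 to 2.70 for Nov, -2.01 to -1.94 for Wisp1 and 3.41 to 3.68 for Wisp2. Genes called over the whole table then numbered 2429 to 2735 higher and 2445 to 2819 lower in LLC_CM. Under the other settings Nov ran from 2.38 to 2.58, and calls from 2014 to 2940 higher and 1932 to 2907 lower. Same-numbered LLC_CM and NCM libraries deviated together with correlations of 0.0683, -0.0438, 0.204 and -0.027, so the numbers were not taken as pairs. With the replicate block, calls were 2810 higher and 2663 lower, and the log2 fold change of Nov was 2.51. Of the 41 list genes named by rule, Plin4, an adipocyte marker, was the only one to lose its call, with adjusted p of 0.0029 to 0.12 over the alternatives. At an adjusted p of 0.01, 5 genes of the SRF/MRTF list fell instead of 8, and 2 YAP/TAZ and TEAD genes rose instead of 4. Depth limits Ctgf in LLC_CM, at 21 to 33 counts, and Wisp3, at 0.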

Other observations

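Within groups, libraries of the same group also differed, and the genes that followed each member there were found from deviations of log2 CPM from the group mean over 8 libraries, among 10003 genes. They are given as descriptions, and the labels do not say what the replicates share. The 5 genes closest to Ctgf were Smad1 (r = 0.961), Irx2 (r = 0.945), Rangrf (r = 0.938), Bambi (r = 0.934) and Ccdc23 (r = 0.931). Nov was closest to Thbd, thrombomodulin (r = 0.987), Cyr61 to Emc7 (r = 0.993), Wisp1 to Camkk2 (r = 0.985) and Wisp2 to Coa5 (r = 0.980).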
